A study of Schizosaccharomyces pombe with 5 samples.

Results

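Transcripts of 59 genes of ribosome biogenesis and RNA polymerase I were followed in the fission yeast Schizosaccharomyces pombe, out of 4907 genes measured on every array. They are the genes that a list of 60 nucleolar ribosome assembly factors and RNA polymerase I subunits named. Of the names, 57 matched a gene by its symbol, noc2 matched 2 genes by synonym (noc201 and noc202), and emg1 and krr1 matched none and were not analysed here. All 59 genes had a value on all 5 arrays, so no member was lost to a filter.

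Ribosome production starts in the nucleolus, where RNA polymerase I transcribes the long precursor of the ribosomal RNAs. Small nucleolar ribonucleoproteins (snoRNPs) modify the precursor, the small subunit processome folds and cuts it around the U3 snoRNA, and large subunit factors build the remaining part before export. In fission yeast these genes are expressed strongly in growing cells and are known to be lowered together in the general stress response.

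Each of the 5 spotted oligonucleotide arrays compared cDNA in Cy5 with cDNA in Cy3, from cells grown at 30 degrees. On 2 arrays both dyes carried wild-type cDNA by label, a self-self hybridisation. On the other 3, Cy5 carried cDNA of the tra1-1 mutant and Cy3 wild-type cDNA, and Cy3 is therefore wild type in both groups. The labels name no allele or marker besides tra1-1 and do not say what that mutation changes in tra1, which encodes the TRRAP-like scaffold of the SAGA acetyltransferase complex. The log ratio of each gene was read as log2(Cy5/Cy3) after each array's median had been set to 0. Neither the log base nor the direction is stated with them, so the signs below are likely and not certain. A ratio describes a share of the RNA labelled, so neither the number of cells nor the RNA per cell can be read from it.

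The labels and the tra1 transcript do not sit together. tra1 read -1.41 and -2.04 on wild-type-labelled arrays 1 and 2, against 0.04, 0.02 and -2.21 on tra1-1-labelled arrays 1, 2 and 3. It was therefore low on both self-self arrays and on tra1-1-labelled array 3 alone among the others. That array stood apart from its group over all 4907 genes too, with r of 0.72 and 0.74 to the wild-type-labelled arrays but 0.47 to both other arrays of its label (a description across genes, on arrays that share wild-type Cy3 by label). The groups keep their labels, and all signs of differences between them are open to this doubt. Values are listed below in that order of arrays. Each gene was read by 2 oligonucleotides, 118 for the members, and their mean was used. The labels speak of independent experiments but name no separate cultures. The p-values therefore reflect the spread between these arrays, which may be technical.

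As a group, these genes differed little between tra1-1 and wild type. In limma, 0 of the 59 passed an adjusted p of 0.05 (Benjamini-Hochberg over all genes), and the background was 0% of 4907 genes. The smallest adjusted p among them was 0.625. At an unadjusted p under 0.05 there was 1 member, ebp2, which was higher. That is 1.69% of members, against 7.11% of all genes in either direction and 3.59% higher. Differences, as tra1-1 minus wild type on the log2 scale, ran from -0.33 (utp20) to 0.55 (ebp2), with a median standard error of 0.17. The interval of 95% around the difference lay within 1 of 0, that is within a 2-fold change either way, for 59 of 59 members and for 96.2% of all genes. These intervals are not adjusted for the number of genes. Without 1 array at a time it lay there for 55 to 59 members, and 0 members passed the test without any of the 5. Without tra1-1-labelled array 3, limma called 205 genes (4.18% of all), and 0 of these were members.

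**Figure D1:**
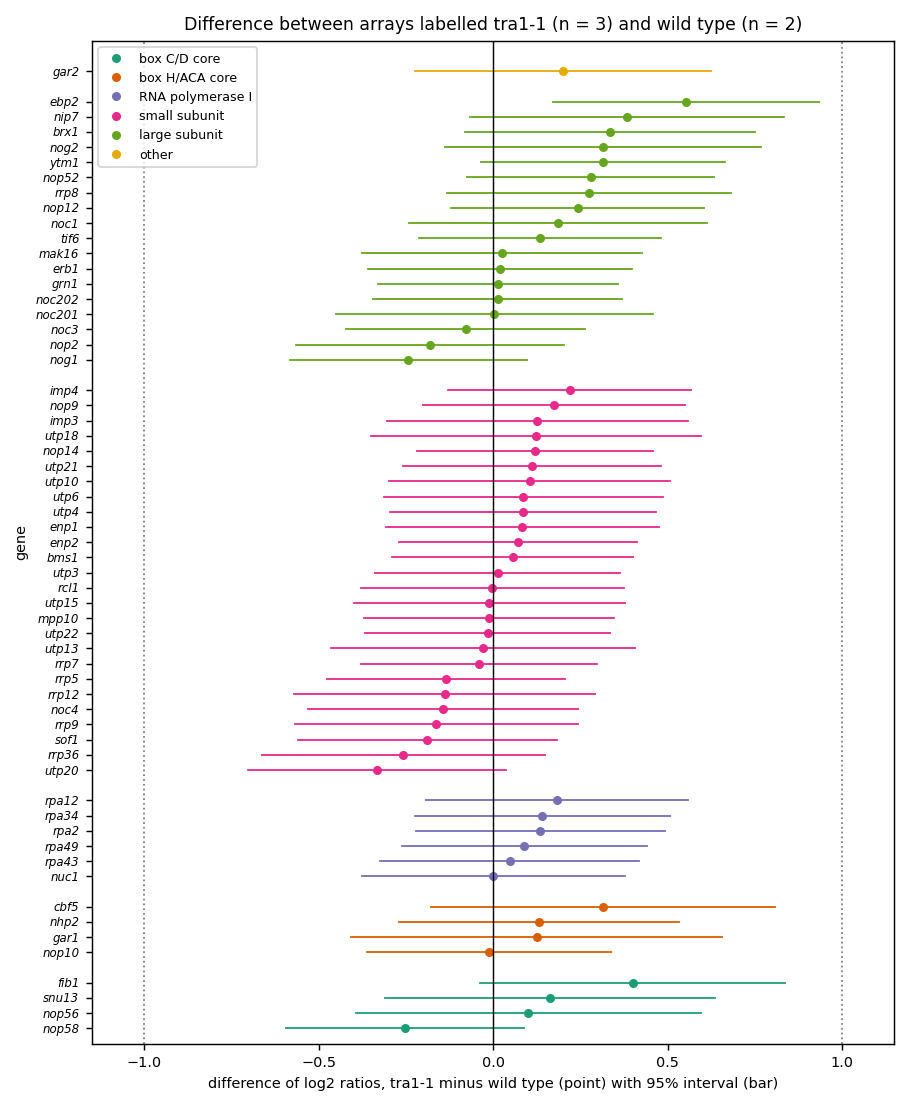
Difference of log2 ratios between the 3 tra1-1-labelled and the 2 wild-type-labelled arrays for each of the 59 genes (x axis, log2 units), grouped and coloured by role on the y axis. Points are the fitted differences, bars the 95% intervals and dotted lines a 2-fold change. Every bar ends inside the dotted lines, and that of ebp2 (0.17 to 0.93) is the one bar that leaves out 0.

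The median difference of the 59 genes was 0.08, with 41 above and 18 below 0, against a median of -0.0025 and 49.4% above 0 over all genes. By array the median of the members was -0.02 and -0.09 on wild-type-labelled arrays 1 and 2, and 0.05, 0.01 and -0.05 on tra1-1-labelled arrays 1, 2 and 3. All 5 medians thus lay within 0.1 of the array's centre, and that of tra1-1 replicate 3 lay between those of the wild-type-labelled arrays. The number of members above 0 was 25, 23, 36, 31 and 26 of 59 in the same order of arrays. Over all genes the share above 0 was 51.8%, 50.8%, 50.4%, 49.2% and 48.9%. Leaving out wild-type-labelled array 2 brought the median difference to 0.04 with 35 above 0. With the values as deposited it was 0.04 with 34 above 0. Over all genes the values as deposited had a median difference of -0.05, with 1976 of 4907 above 0.

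In 12 members (20.3%) the groups lay fully apart, near the 23.3% of all genes. tra1-1 was higher in 7 of them (11.3% of all genes) and lower in 5 (12% of all genes). The higher ones were brx1, ebp2, imp4, nop12, nop14, nop52 and ytm1, and the lower ones nog1, nop58, rrp36, rrp5 and utp20. With an array less there are fewer values to separate, and the count was 30 and 26 without wild-type-labelled arrays 1 and 2 and 20 and 28 without tra1-1-labelled arrays 1 and 3. Over all genes the same counts were 2380, 2386, 1683 and 2335.

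**Figure D2:**
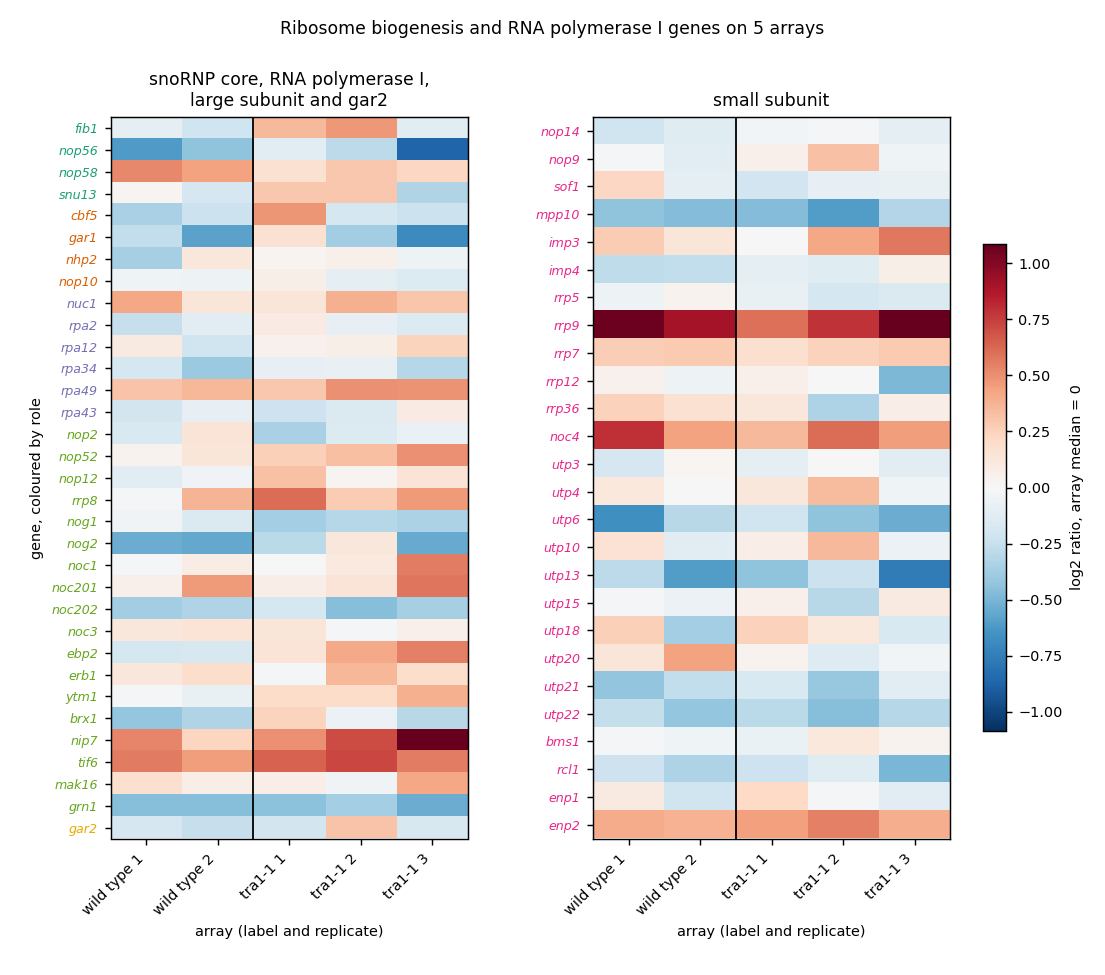
Log2 ratio of each of the 59 genes (rows, names coloured by role) on each array (columns), with the array median at 0, red above and blue below it. The line separates wild-type-labelled arrays from the tra1-1-labelled arrays. Rows such as rrp9, tif6, grn1 and mpp10 keep 1 colour across all arrays, while fib1 and ebp2 change colour between arrays.

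Box C/D snoRNPs guide the methylation of ribosomal RNA, and their 4 core genes did not move as one. fib1 encodes fibrillarin, the methyltransferase itself. It stood at -0.11 and -0.22 on the wild-type-labelled arrays and at 0.35, 0.48 and -0.12 on the tra1-1-labelled arrays, so replicate 3 lay with the wild-type-labelled pair and the groups overlapped. The difference was 0.40 ± 0.20 (SE, limma adjusted p = 0.717). Without tra1-1-labelled array 3 it was 0.58 (limma adjusted p = 0.0514). The oligonucleotides of fib1 disagreed in size, with differences of 0.01 and 0.79, so the difference of the mean came from the second.

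nop56 and nop58 encode the paired scaffold proteins of the same particle, and their values lay on opposite sides of 0, the self-self arrays included. Ratios to Cy3 do not compare the amounts of different transcripts. nop58 stood at 0.52 and 0.44 on the wild-type-labelled arrays and at 0.16, 0.29 and 0.23 on the tra1-1-labelled arrays. It was above 0 on every array, lower on all 3 tra1-1-labelled arrays, and its difference of -0.25 ± 0.15 (SE) missed the threshold (limma adjusted p = 0.747). nop56 stood at -0.62 and -0.44, and at -0.12, -0.29 and -0.88, below 0 throughout and lowest on tra1-1-labelled array 3. That array stretched its spread to 0.40 (SD, n = 3) around a difference of 0.10, which was -0.05 without tra1-1-labelled array 1. snu13, the protein that binds the kink-turn of these RNAs, had 0.03 and -0.19, and then 0.30, 0.30 and -0.33. In the means of snu13 as of fib1, replicates 1 and 2 were the high arrays and replicate 3 was low. The oligonucleotides of snu13 gave differences of -0.12 and 0.45. The first read 0.07 and -0.01 on replicates 1 and 2, against 0.10 on wild-type-labelled array 1.

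The median difference of the 4 box C/D genes was 0.13. It was 0.0026 without tra1-1-labelled arrays 1 and 0.35 without array 3 of that group, so single arrays set its size.

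Box H/ACA snoRNPs guide pseudouridylation. cbf5, the pseudouridine synthase, stood at -0.36 and -0.24 on the wild-type-labelled arrays and at 0.48, -0.19 and -0.24 on the tra1-1-labelled arrays, with replicate 1 alone high. gar1, whose product helps turn over the substrate RNA, had -0.27 and -0.58, and then 0.17, -0.38 and -0.70. It too was highest on replicate 1, and its spread of 0.44 (SD, n = 3) exceeded its difference of 0.12. nhp2 stood at -0.36 and 0.12, and at 0.03, 0.06 and -0.05, so here the wild-type-labelled arrays disagreed with each other. nop10, the smallest core protein, stayed between -0.15 and 0.07 on all arrays. The differences of cbf5, nhp2 and nop10 were 0.31, 0.13 and -0.01, and none of the 4 passed the test. Single arrays set most of them. cbf5 differed by 0.08 and gar1 by -0.11 without tra1-1-labelled array 1. nhp2 differed by -0.11 without wild-type-labelled array 1 and by 0.37 without array 2 of that label. The oligonucleotides of cbf5 gave differences of -0.0023 and 0.63. Without tra1-1-labelled array 1 the median difference of these genes was 0.0032 instead of 0.13.

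RNA polymerase I genes lay close together between the groups, each within 0.2 of 0 in its difference. nuc1, which encodes the largest subunit, stood at 0.43 and 0.13 on the wild-type-labelled arrays and at 0.14, 0.39 and 0.31 on the tra1-1-labelled arrays, a difference of 0.0004 with an interval of -0.38 to 0.38. rpa2, which encodes the second largest, had -0.26 and -0.12, and then 0.09, -0.09 and -0.15. The groups overlapped in both genes. rpa12, for the subunit that assists cleavage of the nascent RNA, had 0.10 and -0.22, and then 0.05, 0.06 and 0.24. rpa34 and rpa49 encode the partners of a heterodimer of this polymerase. Their ratios lay on opposite sides of 0 on the self-self arrays too, and such ratios do not compare the amounts of different transcripts. The oligonucleotides of rpa34 had means of -0.58 and -0.03 on the wild-type-labelled arrays, and those of rpa49 0.49 and 0.19. rpa34 was below 0 on every array, at -0.20 and -0.41, and at -0.09, -0.08 and -0.31. rpa49 was above 0 on every array, at 0.32 and 0.37, and at 0.30, 0.50 and 0.50. rpa43, for a subunit of the stalk that contacts the initiation factor Rrn3, had -0.20 and -0.09, and then -0.23, -0.16 and 0.09.

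Fitted differences of the 6 polymerase genes ran from 0.0004 (nuc1) to 0.18 (rpa12), with a median of 0.11, and 0 of 6 passed the test. All 6 were above 0 with centred, quantile-normalized and scaled values, whereas nuc1 was at -0.05 with the values as deposited. Without tra1-1-labelled array 3, nuc1 and rpa43 were at -0.01 and -0.05. Without wild-type-labelled arrays 1 and 2 in turn, nuc1 was at 0.15 and -0.15 and rpa12 at 0.34 and 0.02.

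The small subunit factors formed the largest group, with 26 measured genes, and were balanced: 13 differences lay above and 13 below 0, around a median of 0.0052. None passed the test. rrp9 encodes a protein that binds the U3 snoRNA and had the highest ratio of all members on 3 of the arrays. It stood at 1.06 and 0.91 on the wild-type-labelled arrays and at 0.60, 0.78 and 1.09 on the tra1-1-labelled arrays. Counted from the lowest, rrp9 ranked between 4816 and 4869 of 4907 genes on every array, the self-self arrays included. Its difference of -0.16 ± 0.18 (SE) did not pass the test, and its oligonucleotides gave differences of 0.12 and -0.45. That of the mean was -0.05 without tra1-1-labelled array 1 and -0.29 without array 3 of that label.

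utp20, which encodes a long repeat protein of the processome, had the lowest difference of all members. It stood at 0.13 and 0.44 on the wild-type-labelled arrays and at 0.03, -0.14 and -0.03 on the tra1-1-labelled arrays, and the groups did not overlap. The difference was -0.33 ± 0.17 (SE, limma adjusted p = 0.718), and -0.18 without wild-type-labelled array 2. Its oligonucleotides gave similar differences, -0.30 and -0.36.

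rrp36 had 0.25 and 0.17, and then 0.12, -0.34 and 0.07, lower on all 3 tra1-1-labelled arrays and mainly on replicate 2. imp4 belongs with imp3 and mpp10 to a trimer that joins U3 to the precursor. It stood at -0.28 and -0.27 on the wild-type-labelled arrays and at -0.10, -0.13 and 0.06 on the tra1-1-labelled arrays, higher on each of the latter. mpp10, its partner, was low everywhere, at -0.43 and -0.47, and at -0.47, -0.61 and -0.32. imp3 stood at 0.28, 0.13, -0.0005, 0.42 and 0.57 in the same order of arrays. Ratios to Cy3 do not compare the amounts of these transcripts, and they differed between the oligonucleotides of a gene. On the wild-type-labelled arrays the oligonucleotide means were 0.055 and -0.60 for imp4, -0.30 and -0.61 for mpp10, and -0.04 and 0.445 for imp3. sof1 had 0.23 and -0.11, and then -0.21, -0.09 and -0.08, and its groups overlapped. nop9, for a protein with Pumilio repeats, had -0.01 and -0.12, and then 0.05, 0.32 and -0.05, where replicate 2 alone stood out. That value is the first oligonucleotide alone, since the second had none on that array, while the other values are means of both. The first oligonucleotide read -0.195 to 0.047 on the other arrays. Differences of rrp36, imp4, sof1 and nop9 were -0.26, 0.22, -0.19 and 0.17, with limma adjusted p from 0.794 to 0.851. Without tra1-1-labelled array 2, rrp36 was at -0.11 and nop9 at 0.07, and sof1 was at -0.02 and -0.36 without wild-type-labelled arrays 1 and 2 in turn. imp4 stayed between 0.16 and 0.26 without any 1 array.

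noc4, whose product works with that of nop14, was high on every array, at 0.79 and 0.44 on the wild-type-labelled arrays and 0.35, 0.61 and 0.46 on the tra1-1-labelled arrays. enp2 was steadier, at 0.40 and 0.38, and at 0.44, 0.55 and 0.40. Its spread over all 5 arrays was 0.07 (SD). The other 17 small subunit genes were nop14, imp3, rrp5, rrp7, rrp12, utp3, utp4, utp6, utp10, utp13, utp15, utp18, utp21, utp22, bms1, rcl1 and enp1. Their ratios ran from -0.77 (utp13 on tra1-1-labelled array 3) to 0.57 (imp3 on the same array), and their differences from -0.14 to 0.13. The smallest unadjusted p among these 17 was 0.400.

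Most differences of the large subunit factors lay above 0, but 0 of them passed the test. Of 18 genes, 15 had a difference above 0, around a median of 0.16. With the values as deposited 10 of 18 did (median 0.12), against 1976 of 4907 genes in all. With quantile normalization it was 12 of 18 (median 0.21), against 2488 of 4907. ebp2, which encodes an early assembly factor of the large subunit, had the largest difference of all members. It stood at -0.19 and -0.17 on the wild-type-labelled arrays and at 0.15, 0.41 and 0.55 on the tra1-1-labelled arrays. All 3 of the latter lay above both former, replicate 3 highest, which sets ebp2 apart from fib1 and snu13. The difference was 0.55 ± 0.17 (SE, 95% interval 0.17 to 0.93, limma unadjusted p = 0.00895 and adjusted p = 0.625). Both ebp2 oligonucleotides were higher, by 0.43 and 0.68, and leaving out any 1 array gave 0.46 to 0.67.

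ytm1 encodes a partner of Erb1 in a complex that matures the large subunit. It had -0.01 and -0.09 on the wild-type-labelled arrays and 0.21, 0.21 and 0.39 on the tra1-1-labelled arrays, with no overlap. Its difference was 0.31 ± 0.16 (SE, limma adjusted p = 0.718), and both oligonucleotides were higher. erb1 itself differed by 0.02. nop52 had 0.04 and 0.13, and then 0.26, 0.33 and 0.50, also without overlap, and a difference of 0.28. nip7 had 0.54 and 0.24, and then 0.50, 0.72 and 1.10, a difference of 0.38 ± 0.20 (SE) in which replicate 1 overlapped with the wild-type-labelled pair. It was 0.22 without tra1-1-labelled arrays 3 and 0.24 without wild-type-labelled array 2.

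brx1 had -0.42 and -0.33, and then 0.24, -0.06 and -0.30, and only just did not overlap, since replicate 3 lay beside the wild-type-labelled arrays. Its oligonucleotides gave 0.58 and 0.10. nog1, which encodes a nucleolar GTPase, went the other way, at -0.04 and -0.16, and at -0.37, -0.31 and -0.34. The 3 tra1-1 values were close together (SD 0.03, n = 3), but 1 oligonucleotide differed by -0.53 and the other by 0.04. Differences of brx1 and nog1 were 0.34 and -0.24 and missed the threshold (limma adjusted p = 0.747 and 0.749). Without tra1-1-labelled array 1, that of brx1 was 0.19.

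tif6, for the factor that keeps the subunits from joining early, and grn1, for a GTPase of the nucleostemin family, kept their sign on every array. tif6 stood at 0.57 and 0.46 on the wild-type-labelled arrays and at 0.65, 0.74 and 0.56 on the tra1-1-labelled arrays. grn1 stood at -0.47 and -0.47, and at -0.45, -0.37 and -0.55. Their differences were 0.13 and 0.01, with 95% intervals of -0.21 to 0.48 and -0.33 to 0.36. Without wild-type-labelled array 2, tif6 differed by 0.08. The other 10 large subunit genes were nop2, nop12, rrp8, nog2, noc1, noc201, noc202, noc3, erb1 and mak16, with ratios from -0.56 to 0.61 and differences from -0.18 to 0.31. gar2, which encodes a nucleolin-like protein and belongs to neither subunit's list, had -0.19 and -0.25, and then -0.20, 0.32 and -0.18, with replicate 2 alone above 0.

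**Figure D3:**
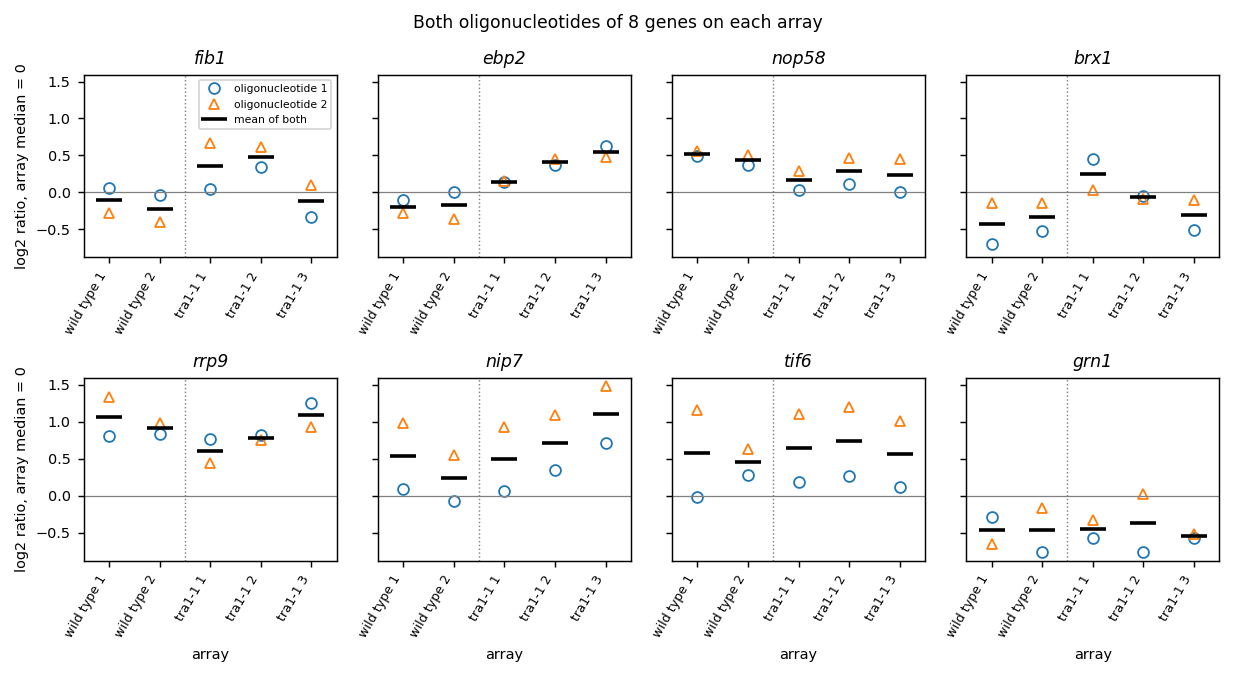
Log2 ratio (y axis) on each array (x axis) of both oligonucleotides of 8 genes (circles and triangles) and of their mean (bars), with the array median at 0 and a dotted line between the groups. Both oligonucleotides of ebp2 rank the groups alike, those of fib1 differ in size, and in tif6 and nip7 the second lies above the first on all 5 arrays.

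The ratio on each group was also compared with 0, since a self-self array by label should show effects of dye and spot alone. On the wild-type-labelled arrays, 8 members passed limma's test (background 11.4%), 4 above 0 (6.78%, background 6.4%) and 4 below 0 (6.78%, background 4.99%). The higher ones were rrp9 (0.99 ± 0.11, SD, n = 2, limma adjusted p = 0.00616), noc4 (0.61), tif6 (0.51) and nop58 (0.48). grn1 (-0.47), mpp10 (-0.45), nog2 (-0.56) and utp6 (-0.48) were the lower ones. On the tra1-1-labelled arrays, 9 members passed (background 7.83%), 7 above 0 (11.9%, background 5.6%) and 2 below (3.39%, background 2.22%). rrp9 was at 0.82 ± 0.25 (SD, n = 3, limma adjusted p = 0.0183), nip7 at 0.77, tif6 at 0.65, noc4 at 0.47, enp2 at 0.46, rrp8 at 0.45 and rpa49 at 0.43. grn1 (-0.46) and mpp10 (-0.46) were below 0.

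These counts rest on single arrays. On the wild-type-labelled arrays the test called 3, 5 and 18 members without tra1-1-labelled arrays 1, 2 and 3, which share in the estimate of spread, against 8.05%, 8.72% and 27.9% of all genes. It called 0 without either wild-type-labelled array, where a lone array was assumed to vary like the other group. On the tra1-1-labelled arrays it called 2, 1 and 15 members without replicates 1, 2 and 3, against 2.85%, 1.32% and 22.4% of all genes.

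A ratio of 1 sign on all 5 arrays was seen in 23 members. Of these, 11 lay above 0 (18.6%, background 20.4%) and 12 below (20.3%, background 17.1%), so the shares were near those of all genes. All arrays share wild-type cDNA in Cy3 by label. In tif6 and noc4 the oligonucleotides differed in this offset, and how many of the 23 did so was not counted. In tif6 the first lay between -0.01 and 0.28 and the second between 0.64 and 1.20 over the arrays. In noc4 the first stayed between 0.63 and 1.13, while the second was at 0.76 on wild-type-labelled array 1 and between -0.15 and 0.11 on the other 4. Both oligonucleotides of rrp9 were high, from 0.44 to 1.33.

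Over the members, r between both oligonucleotides was 0.33 and 0.31 on the wild-type-labelled arrays and 0.17, 0.18 and 0.30 on tra1-1-labelled arrays 1, 2 and 3 (58 or 59 genes, read on the same array). Over all genes it was 0.41 and 0.41, and 0.13, 0.11 and 0.39. The group differences of a member's oligonucleotides lay 0.22 apart in the median (middle 50% of the 59 members, 0.11 to 0.39). In 25 members both oligonucleotides were higher on the tra1-1-labelled arrays, in 5 both were lower, and in 29 they disagreed in sign. These pairs were not counted over all genes. Taken singly, 78 of 117 oligonucleotides of members with a value on every array had a difference above 0. The same count was 4717 of 9562 for all genes and 165 of 242 for cytosolic ribosomal protein genes.

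Other genes of the pathway, from lists of the same kind, were near the members. Among further small subunit factors 21 of 28 differences were above 0 (median 0.11), and among further large subunit factors 25 of 38 (median 0.06). The gene rrp16 is counted in both lists, in the latter through its synonym nop53. In limma 0 of either list passed, and at an unadjusted p under 0.05 there were 0 and 1. That gene, rlp7, for a nucleolar relative of ribosomal protein L7, stood at -0.14 and -0.20 on the wild-type-labelled arrays and at 0.28, 0.24 and 0.24 on the tra1-1-labelled arrays, a difference of 0.42 ± 0.15 (SE, limma adjusted p = 0.666). fal1 and rok1, both for DEAD-box helicases, and rio2, for a kinase, differed by 0.35, 0.23 and 0.31, and spb4, for a helicase of the large subunit, by -0.30.

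ker1 had the largest difference among the transcription genes. It encodes a small RNA polymerase I protein outside the members and stood at -0.28 and -0.21 on the wild-type-labelled arrays and at 0.33, 0.29 and 0.37 on the tra1-1-labelled arrays. The groups lay well apart, by 0.57 ± 0.15 (SE), yet it did not pass over all genes (limma unadjusted p = 0.00347 and adjusted p = 0.625). rrn10 and rrn3, of transcription factors of this polymerase, differed by -0.33 and 0.26, and the list of 7 had a median of -0.04. Median differences were 0.02 for 7 subunits shared between polymerases, 0.11 for 7 of RNA polymerase II and -0.02 for 10 of RNA polymerase III, with 0 genes past the test in each and 0 at an unadjusted p under 0.05. The members' own median for RNA polymerase I, 0.11, thus had the size seen for RNA polymerase II.

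The exosome list, whose products trim and degrade ribosomal RNA precursors, had a median of 0.12 over 13 genes, with rrp4 at 0.30 and rrp6 at -0.41. Cytosolic ribosomal protein genes had 90 of 122 differences above 0 (median 0.08) and medians by array of 0.03, -0.01, 0.14, 0.18 and -0.03 in the order above. Of the 15 stress-induced genes, 0 passed the test. The median difference was 0.01, but single genes ran from -1.82 (hsp9) to 0.99 (gst2). zym1, a metallothionein gene, was at -1.50, pyp2 at -0.57 and tps1 at 0.51. hsp9 stood at 3.04 and 2.77 on the wild-type-labelled arrays and at 0.31, 0.24 and 2.70 on the tra1-1-labelled arrays, so replicate 3 lay near the wild-type-labelled pair. In each of these lists 0 genes passed limma's test of the difference. At an unadjusted limma p under 0.05 there were 0 of 13, 6 of 122 and 6 of 15 in the order given, against 7.11% of all genes. Of the 6 stress-induced genes, 2 were higher and 4 lower. The part of stress genes or of tra1 level in the values of the members was not tested.

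**Figure D4:**
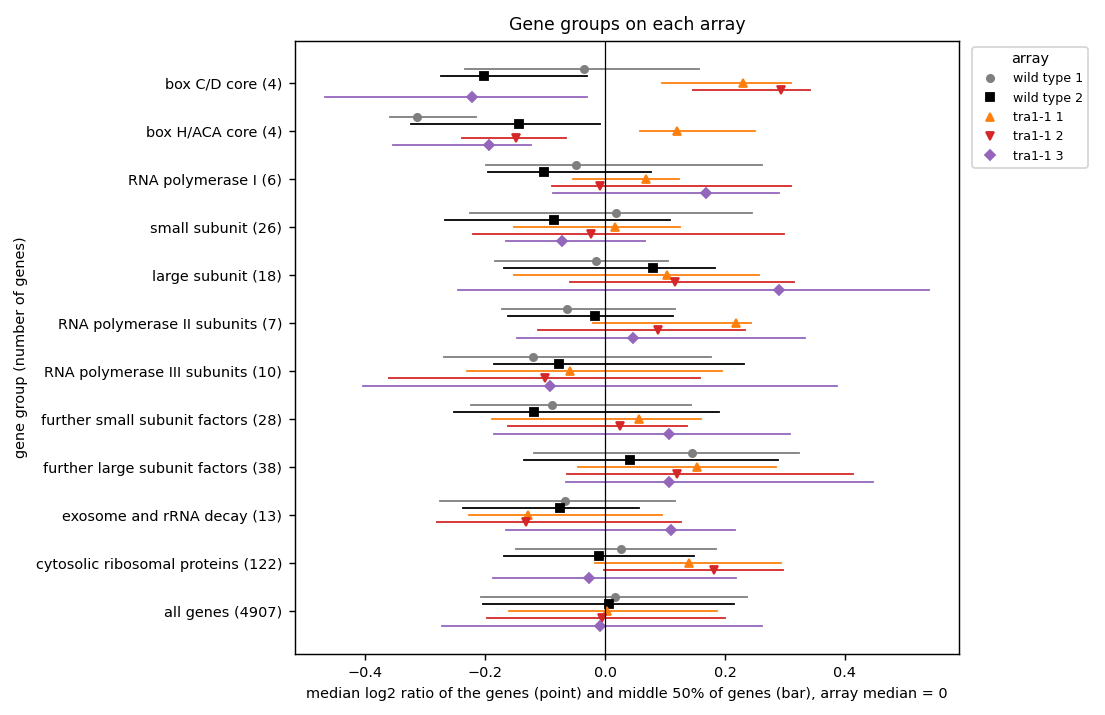
Median log2 ratio of each gene group (points) and its middle 50% of genes (bars) on each of the 5 arrays, with the array median at 0 (x axis, log2 units) and the number of genes in brackets. The box C/D genes on tra1-1 replicates 1 and 2 (0.23 and 0.29) lie above the other 3 arrays, while the medians of the small subunit genes lie within 0.1 of 0 on all arrays.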

How the data were processed

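The values are the log ratios deposited by the authors, 1 per probe and array, taken as log2. How spots were scanned, background-corrected or normalized is not stated with them. Per the labels' protocols, cDNA with aminoallyl-dUTP was made from 30 ug of total RNA, and 1.5 ug of it received each dye. Deposited medians ran from -0.43 to -0.21, and each array was centred on its median. Arrays gave values for 9695 to 9832 of 9858 probes. The number of arrays limits the precision, and signal over background was not analysed here.

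Probes were named through the platform annotation: 9632 had 1 gene symbol, 44 several, and 182 were not listed. The reference assembly ASM294v3 served only for names, and 4804 of 4816 named genes matched it. Probes of a gene were averaged, and 22 of 4929 genes and unnamed pairs without a value on every array were left out. For 1 member, nop9, a single oligonucleotide stood in on tra1-1-labelled array 2, where the other had no value.

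Differences and ratios against 0 were fitted over all genes in R 4.3.3 with limma 3.58.1 (lmFit, eBayes, 2-sided, Benjamini-Hochberg), the tra1-1 ratio against 0 on its 3 arrays alone. Genes given on every array were all snoRNP, RNA polymerase I and gar2 members, the 6 small and the 6 large subunit members with the smallest p, and up to 6 past each test. Pathway lists named up to 3 genes by p. imp3, hsp9, gst2 and the spread of other members were added after their values were seen. The members and lists were chosen with earlier results of these data known. In simulated data for the group difference (4907 genes), 6% of 50 genes changed by 0.5 were recovered, 70% for 1 and 98% for 2, with 3 false calls among 140. The simulated noise was independent and normal, so no array stood apart from its group as tra1-1-labelled array 3 did. In the real data 28 genes (0.571%) differed by at least 1 and 0 were called, so these recoveries may be too high for them. Alternatives covered centring, quantile and scale normalization, missing values, single oligonucleotides, leaving out each array and a replicate block. Plots were made with matplotlib 3.10.9.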

Additional observations from a re-analysis of the deposited data

How the results depend on the processing

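Across the alternatives run, 0 members passed the test of the group difference, except for 1 with a replicate block, and the median over members stayed above 0 (0.04 to 0.11). The block takes tra1-1-labelled array 3 out of the difference, as it has no partner. It called 329 of 4907 genes and 1 of 59 members, fib1 (0.58, limma adjusted p = 0.0287). The oligonucleotides of fib1 gave differences of 0.01 and 0.79 without the block. Whether equal numbers pair the arrays is not known. Deviations correlated at 0.04 and -0.03, and at 0.03 and -0.04 when crossed. The deviations of the wild-type-labelled pair mirror each other, so these values cannot decide it. Leaving out arrays gave 0 to 205 calls over all genes. On the wild-type-labelled arrays, calls were 1561 with the values as deposited and 395 to 1367 without a tra1-1-labelled array. With single oligonucleotides, 1040 of 9562 oligonucleotides were called, which is not a count of genes. Members called were 21 with the values as deposited and 0 to 18 without an array, and the members' median was -0.37 with the values as deposited. On the tra1-1-labelled arrays, calls were 2613 (as deposited), 586 (quantile) and 703 (scale), and 65 to 1100 without an array. Members called were 29 (as deposited) and 1 to 15 without an array, and the members' median was -0.34 as deposited. With single oligonucleotides, 1188 of 9562 were called there, and 17 of the 117 oligonucleotides of members. Values as deposited lie below 0 because arrays were not centred. For the other shifts the cause was not tested. Members without overlap numbered 15 to 30 without an array. The 15, without tra1-1-labelled array 2, has no count over all genes beside it here. Those for the other arrays are given above.

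Signs of small differences turned. As deposited, nuc1 was at -0.0451 and grn1 at -0.0326, and with quantile normalization nop10 was at 0.0117 and grn1 at -0.0405. A single oligonucleotide gave snu13 -0.12, cbf5 -0.0022, nop10 0.0393, nuc1 -0.0005, rpa2 -0.082, rpa34 -0.0177, rpa43 -0.0085, rrp9 0.12, nog1 0.044, noc4 0.15, grn1 -0.11 and mpp10 0.19. The block gave nop10 0.0315, nuc1 -0.0135 and rpa43 -0.0485. Without 1 array the ranges were -0.11 to 0.3745 for nhp2, -0.0485 to 0.11 for rpa43, -0.32 to 0.0357 for noc4, -0.0855 to 0.0582 for mpp10, -0.11 to 0.32 for gar1, -0.15 to 0.15 for nuc1, -0.0542 to 0.33 for nop56, -0.0763 to 0.0315 for nop10 and -0.0297 to 0.0582 for grn1. The other 17 of 32 named members kept their sign in the alternatives run. The count of intervals within a 2-fold change was chosen after seeing the data. Background correction and a filter on dim spots were not run, since channel intensities were not analysed here.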
